A study of Mus musculus with 8 samples.

Results

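The chemokine system of the myocardium was followed here through 56 of the 33249 genes in the deposited gene table. They are 33 chemokine ligands and 23 chemokine receptors, chosen by symbol alone and not by any measured value: Ccl, Cxcl, Cx3cl1, Xcl1, Pf4 and Ppbp for the ligands, and Ccr, Ccrl2, Cxcr, Cx3cr1, Xcr1 and Ackr1 to Ackr4 for the receptors. The table holds no row for Ccl20, Ccl26 or Cxcl15, and the symbols with a letter at the end (Ccl21a, Ccl27a and their copies) fall outside the rule. Poly(A) RNA of mouse myocardium was sequenced in 8 libraries, 2 in each of 4 groups. In the groups labelled CKO, Piezo1 fl/fl mice also carry Myh6-MerCreMer, a tamoxifen-inducible Cre that the Myh6 promoter drives in cardiomyocytes, so that other cell types of the heart keep the floxed gene. The groups labelled fl/fl are Piezo1 fl/fl littermates without that transgene. Both genotypes are given as the authors describe them, and the Esr1 values below do not follow that description in every library. Tamoxifen was given at 4 weeks of age and surgery was done at 8 weeks. In fl/fl-MI and CKO-MI the left anterior descending artery was ligated permanently and the hearts were taken at day 42. In fl/fl-Sham and CKO-Sham the same operation was done without ligation. Both lines came from Jackson Laboratory, under the stock names Piezo1tm2.1Apat/J and A1cfTg(Myh6-cre/Esr1*)1Jmk/J. The genetic background of the crossed mice, whether the fl/fl mice also received tamoxifen, and whether each library is a separate animal are not given in the sources used here, so every p-value measures the spread between libraries, which may be technical.

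Chemokines are small secreted proteins that steer leukocytes along gradients held on heparan sulfate, and a few of them (Cx3cl1, Cxcl16) are made as membrane-bound molecules that are shed. They act on receptors coupled to inhibitory G proteins, while the atypical receptors Ackr1 to Ackr4 bind chemokines without that coupling and remove or redistribute them. In the infarcted heart the ligands of Ccr2 call in inflammatory monocytes, the ligands of Cxcr2 call in neutrophils, the interferon-induced ligands of Cxcr3 call in T cells, and Cxcl12 with its receptor Cxcr4 retains progenitors and takes part in vessel growth.

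Many members lie side by side in the genome. On the coordinates of the deposited table, which for 52 of the 56 members are those of GENCODE M21 on GRCm38, 6 Ccl ligands (Ccl2, Ccl7, Ccl11, Ccl12, Ccl8 and Ccl1) lie at chr11:82035571-82305690 and 5 more (Ccl5, Ccl9, Ccl6, Ccl3 and Ccl4) at chr11:83525778-83664683. The neutrophil-attracting CXC ligands and Pf4 lie at chr5:90759360-90905938, and Cxcl9, Cxcl10 and Cxcl11 at chr5:92321347-92365485. Chromosome 9 holds 14 of the members. The gene spans of 16 members overlap another gene, among them Cxcl10 with Art3 and Cxcr6 with Fyco1 on the opposite strand, and since it is not stated whether reads were counted by strand, the counts of such genes are uncertain to that extent.

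The promoters of 6 members are printed because the results below turn on them: Cxcl9 and Cxcl10, the interferon-induced pair whose values in both CKO-MI libraries lay below both fl/fl-MI libraries, Cxcl1, Cxcl2 and Ccrl2, which were highest in a single library, and Cxcl12, the member that fell after MI. The bases are those before the RefSeq start site on GRCm38.p6, at most 250, cut where the deposited gene begins, 5′ to 3′ along the gene. Ccrl2 has 3 start sites in the RefSeq table and the one farthest upstream is shown. Capitals mark matches, on either strand, to GAAANNGAA, the core of an interferon-response element, and to GGANTTTCC and GGGNNTTCC, overlapping spellings of the NF-kB site.
Cxcl9 (chr5:92328080-92328329, minus strand): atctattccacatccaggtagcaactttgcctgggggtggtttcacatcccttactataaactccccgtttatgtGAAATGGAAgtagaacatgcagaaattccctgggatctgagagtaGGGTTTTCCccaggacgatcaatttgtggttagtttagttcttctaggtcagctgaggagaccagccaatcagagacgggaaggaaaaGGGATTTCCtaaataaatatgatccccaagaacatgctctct
Cxcl10 (chr5:92348890-92349139, minus strand): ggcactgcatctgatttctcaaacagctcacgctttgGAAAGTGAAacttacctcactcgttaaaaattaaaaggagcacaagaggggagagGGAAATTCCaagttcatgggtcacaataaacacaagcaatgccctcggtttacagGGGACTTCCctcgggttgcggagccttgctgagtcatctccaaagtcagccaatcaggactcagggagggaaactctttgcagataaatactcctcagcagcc
Cxcl1 (chr5:90890995-90891240, plus strand): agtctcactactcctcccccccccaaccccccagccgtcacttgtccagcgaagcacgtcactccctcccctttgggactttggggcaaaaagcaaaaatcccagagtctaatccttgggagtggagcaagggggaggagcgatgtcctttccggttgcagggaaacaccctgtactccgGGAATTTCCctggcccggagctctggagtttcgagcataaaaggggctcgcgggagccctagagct
Cxcl2 (chr5:90903649-90903870, plus strand): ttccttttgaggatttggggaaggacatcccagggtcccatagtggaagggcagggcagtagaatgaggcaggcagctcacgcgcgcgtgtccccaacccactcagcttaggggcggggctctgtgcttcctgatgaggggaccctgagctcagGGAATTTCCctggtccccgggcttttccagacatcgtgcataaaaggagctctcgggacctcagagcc
Ccrl2 (chr9:111057520-111057768, minus strand): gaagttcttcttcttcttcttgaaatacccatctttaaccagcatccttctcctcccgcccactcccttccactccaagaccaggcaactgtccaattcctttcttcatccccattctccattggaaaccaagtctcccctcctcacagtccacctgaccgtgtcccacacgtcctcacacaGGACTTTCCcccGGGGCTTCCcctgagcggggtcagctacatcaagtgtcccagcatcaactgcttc
Cxcl12 (chr6:117168285-117168534, plus strand): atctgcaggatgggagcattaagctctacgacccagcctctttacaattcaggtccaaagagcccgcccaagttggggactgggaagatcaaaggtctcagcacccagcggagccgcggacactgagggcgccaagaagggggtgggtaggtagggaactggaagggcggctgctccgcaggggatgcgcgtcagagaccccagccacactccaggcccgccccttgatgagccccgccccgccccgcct
Of the 6, the interferon-response core was in the 250 bases before the start of Cxcl9 and Cxcl10. It was in 8 of 42 members with a promoter and in 7.13% of the 32851 promoters of the RefSeq table. GGANTTTCC was before Cxcl1, Cxcl2, Cxcl10 and Ccrl2, in 6 of the 42 members and in 1.07% of all promoters. GGGNNTTCC was before Cxcl9, Cxcl10 and Ccrl2, in 8 of the 42 members and in 4.98% of all promoters. None of the 3 spellings was found in the Cxcl12 window. The spellings were chosen with the expression values known, 42 of the 56 members had a promoter in the RefSeq table, and a match describes these letters and no binding. Members without one included Ccl2, Ccl4, Ccl5, Ccl7, Ccl11, Ccl24, Ccr7, Ccr10, Cxcl5, Cxcl11, Cxcl16, Cxcl17 and Cxcr5.

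The deposited counts summed to between 73821747 and 88117573 per library, at about 4 counts per read pair, and the members together took 420.8 to 789.4 CPM (counts scaled to library size). Values per library are given below as CPM after TMM scaling of the library sizes, and are compared only within a gene. The share of mitochondrial genes was 43.1% to 46.4% in sham hearts and 19.9% to 24.2% after MI, so the scaling matters: the median log2 change of all 14028 tested genes between MI and sham was 0.035 with TMM and 0.59 on total counts alone. Piezo1, the targeted gene, had 72.2 to 88.3 CPM in the sham and 53.5 to 64.8 CPM in the MI libraries, and was not lower in the libraries labelled CKO (log2 change 0.03, standard error 0.16, between CKO-MI and fl/fl-MI, adjusted p = 0.972 in edgeR). Esr1, whose ligand-binding part the inducible Cre carries, had 331 to 707 CPM in the libraries labelled fl/fl-MI 2, CKO-MI 1 and CKO-MI 2 and 5.52 to 8.36 CPM in the other 5. Each direction between genotypes therefore rests on the labels as deposited. The library labelled fl/fl-MI 2 also stood apart by its atrial genes, whose 5 listed markers summed to 19900 CPM against 2550 to 4450 CPM in the other MI libraries and 135 to 594 CPM in the sham libraries, and results are given with and without it. Markers of cardiomyocytes, the labelled tissue, summed over 8 genes to 31900 to 35900 CPM in sham. After MI the sums were 18800, 35600, 34100 and 22000 CPM in fl/fl-MI 1, fl/fl-MI 2, CKO-MI 1 and CKO-MI 2. The MI libraries of each genotype thus differed in this sum, and its part in the members' values was not tested.

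Of the 56 members, 34 had a mean FPKM (the authors' value per length and library size) of at least 0.5 over the 8 libraries and were tested, 22 ligands and 12 receptors. Per length, Cxcl12 had the highest level of all members in the sham hearts, with a mean FPKM of 35.0 ± 5.14 (SD, n = 4 libraries of both genotypes), followed by Ackr3 (12.3 ± 0.738), Ccl6 (10.02 ± 0.703) and Pf4 (9.93 ± 2.10), of which the last 2 did not differ beyond their spread. After MI the order on the FPKM scale was Ccl6 (30.0 ± 10.1), Ackr3 (25.7 ± 4.6), Cxcl14 (21.6 ± 23.5), Pf4 (18.3 ± 5.83) and Cxcl12 (16.5 ± 7.86), and neighbours in this order lay within each other's spread. The 22 members below the limit included all but 1 of the 8 ligands of lymphocyte and dendritic cell homing and the neutrophil receptors Cxcr1 and Cxcr2. The others were Cxcl3, Cxcl11, Cxcl17, Ccl4, the receptors Ccr3, Ccr4, Ccr6, Ccr8, Ccr9, Ccr10, Cxcr5 and Xcr1, and Ackr1. Cxcr2, the receptor of the neutrophil-attracting ligands, had 16 to 91 counts per library, and Ccl19 0 to 77. Of the 22, 12 had a count of 0 in at least 1 library, and Ackr1, the chemokine sink of venules and red cells, came closest to the limit with a mean FPKM of 0.491. Without a limit none (0) of the 22 passed the edgeR test for MI against sham at an adjusted p under 0.05, and 4 (18.2%; Ccr8, Xcr1, Ccl22 and Ccr10) had an unadjusted p under 0.05, where 9.47% of the 19221 genes below the limit had one.

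Remodelled hearts at day 42 after MI carried more RNA of 9 chemokine genes and less of 1. The comparison of all 4 MI libraries with all 4 sham libraries asked which members differ after MI on average over both genotypes. A change in a single genotype can therefore give a call. The members that rose were the ligands Cxcl13, Cxcl5, Cx3cl1, Ccl9, Cxcl10 and Ccl6 and the receptors Cxcr6, Ackr2 and Ccr1, and the member that fell was Cxcl12. The 9 that rose were 26.5% of the 34 tested members, where 22.0% of all 14028 tested genes rose, and the 1 that fell was 2.94%, where 18.3% of all genes fell (edgeR's quasi-likelihood test, Benjamini-Hochberg adjusted p under 0.05 over all tested genes, with a mean per group fitted to all 8 libraries). The estimated change was above 0 for 27 of the 34 members and below 0 for 7, with a median log2 fold change of 0.83 against 0.035 for all tested genes. All 4 MI libraries lay above all 4 sham libraries for 6 members (17.6%, against 20.9% of all tested genes) and below for 1 (2.94%, against 19.5%). In these bulk libraries, more cells of a type and more RNA per cell cannot be told apart.

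**Figure D1:**
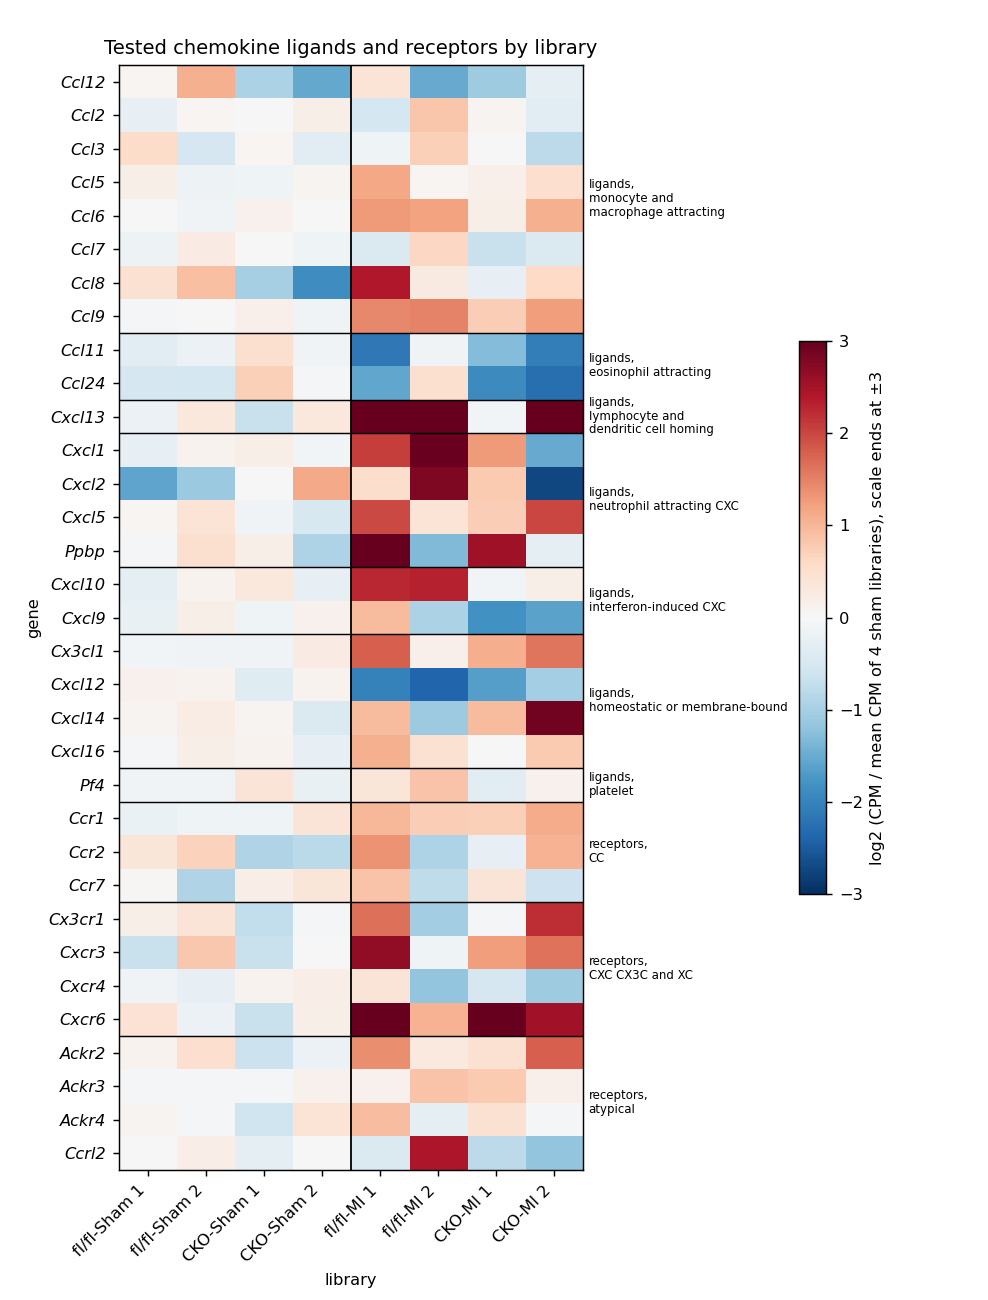
Heat map of 33 of the 34 tested members (rows, grouped by role) in the 8 libraries (columns), coloured by the log2 ratio of CPM to the mean CPM of the 4 sham libraries, with colours ending at 3 in either direction. Cxcl13 and Cxcr6 are above the sham mean in most MI libraries, Cxcl12 is below it in all 4, and the library labelled fl/fl-MI 2 often differs from fl/fl-MI 1, as in Ppbp, Cx3cr1 and Ccrl2.

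Among the ligands that attract monocytes and macrophages, 2 of 8 tested genes rose. Ccl9, a Ccr1 ligand of the macrophage inflammatory protein family, had 14.9 and 15.8 CPM in fl/fl-Sham, 17.2 and 14.3 in CKO-Sham, 42.2 and 43.6 in fl/fl-MI, and 25.8 and 37.4 in CKO-MI. All MI libraries were above all sham libraries, and the log2 fold change was 1.24 over both genotypes (standard error 0.14, adjusted p = 0.00118 in edgeR). Ccl9 was the only member that passed as higher in each genotype taken alone, with 1.49 (standard error 0.20, adjusted p = 0.00686) in fl/fl and 1.0 (standard error 0.20, adjusted p = 0.0151) in CKO. Ccl6, its neighbour on chromosome 11 and another Ccr1 ligand, had 22.3 and 20.97 CPM in fl/fl-Sham, 24.8 and 22.5 in CKO-Sham, 54.8 and 52.5 in fl/fl-MI, and 25.7 and 47.4 in CKO-MI. It rose by 0.97 on the log2 scale (standard error 0.19, edgeR adjusted p = 0.00733), and CKO-MI 1 lay just above the sham range. Their receptor Ccr1 had 2.73, 2.88, 2.90 and 4.10 CPM in the sham libraries and 6.25 and 5.30 in fl/fl-MI and 5.16 and 6.84 in CKO-MI, with no overlap, and rose by 0.91 (standard error 0.20, adjusted p = 0.0114). The 12 listed macrophage markers summed to 567 to 641 CPM in sham, to 1310 and 952 CPM after MI in fl/fl and to 518 and 886 CPM after MI in CKO, with none at 0. In CKO-MI 1 their sum was below the sham range, where Ccl9, Ccl6 and Ccr1 were above theirs. Of the 12 markers, 4 rose and 1 fell. Their part in the result was not tested.

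The ligands of Ccr2, the receptor of inflammatory monocytes, did not pass. Ccl2, the main one, had 3.5 to 4.66 CPM in the sham libraries and 2.84, 7.30, 4.35 and 3.27 CPM in fl/fl-MI 1, fl/fl-MI 2, CKO-MI 1 and CKO-MI 2 (log2 fold change 0.09, standard error 0.31, edgeR adjusted p = 0.829). Ccl7 (log2 fold change -0.18, standard error 0.28) and Ccl12 (-0.16, standard error 0.49) were also close to 0. Ccl8, which lies in the same run of genes on chromosome 11, was estimated at 1.30 (standard error 0.51, edgeR adjusted p = 0.0775). Ccr2 itself had 10.8 and 13.7 CPM in fl/fl-Sham, 4.51 and 4.84 in CKO-Sham, 21.7 and 4.49 in fl/fl-MI, and 7.11 and 17.5 in CKO-MI, so that the MI range covered the whole sham range. The ligands Ccl3 (log2 fold change 0.02, standard error 0.39) and Ccl5 (0.53, standard error 0.32) did not pass either, and Ccl4 was below the limit, with 7 to 26 counts per library.

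Eosinophil-attracting ligands were low and did not pass over both genotypes. Ccl11 (eotaxin) had 2.47 to 4.36 CPM in sham, 0.708 and 2.91 in fl/fl-MI, and 1.28 and 0.742 in CKO-MI (log2 fold change -1.20, standard error 0.46, edgeR adjusted p = 0.0738). Ccl24, an eotaxin made by macrophages, had 0.87 and 0.855 CPM in fl/fl-Sham, 2.03 and 1.18 in CKO-Sham, 0.416 and 1.73 in fl/fl-MI, and 0.331 and 0.258 in CKO-MI. Both ligands were higher in fl/fl-MI 2 than in the other MI libraries. Their receptor Ccr3 was below the limit and had 0 counts in 3 libraries.

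Cxcl13, the B cell attractant that acts on Cxcr5, had 1.12 and 1.58 CPM in fl/fl-Sham, 0.804 and 1.58 in CKO-Sham, 13.1 and 27.7 in fl/fl-MI, and 1.19 and 11.9 in CKO-MI. The library labelled CKO-MI 1 stayed within the sham range while the other 3 MI libraries were above it, and the log2 fold change was 3.19 (standard error 0.71, edgeR adjusted p = 0.0122), among the largest of the members. Cxcr5 was below the limit, with 8 to 66 counts per library, and the 5 B cell markers summed to 2.41 to 5.89 CPM in sham and 1.65 to 6.30 CPM in MI. The 5 mesothelial markers, of which 3 rose after MI, were high and low in the same MI libraries as Cxcl13, with sums of 34.1 to 44.5 CPM in sham and of 94.2, 188, 36.2 and 68.5 CPM in fl/fl-MI 1, fl/fl-MI 2, CKO-MI 1 and CKO-MI 2. Their part in the Cxcl13 values was not tested. The other homing ligands (Ccl1, Ccl17, Ccl19, Ccl22, Ccl25, Ccl28 and Xcl1) were too low to test. Ccr7, the lymph node homing receptor that Ccl19 shares with the Ccl21 ligands, had 0.680 to 1.63 CPM in sham and 2.29, 0.748, 1.67 and 0.824 CPM in the MI libraries in the order above.

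Among the ligands of Cxcr2, which draw neutrophils, Cxcl5 rose. It had 0.378 to 0.696 CPM in the sham libraries, 2.08 and 0.700 in fl/fl-MI, and 0.874 and 2.10 in CKO-MI (log2 fold change 1.47, standard error 0.46, edgeR adjusted p = 0.0396), and fl/fl-MI 2 was only just above the highest sham library. Cxcl1, the keratinocyte-derived chemokine, had 2.47, 3.20, 3.35 and 2.78 CPM in sham, 12.5 and 22.9 in fl/fl-MI, and 7.12 and 1.04 in CKO-MI, where CKO-MI 2 was below every sham library (log2 fold change 1.53, standard error 0.55, adjusted p = 0.0619). Cxcl2, next to it on chromosome 5, had 0.819 and 1.14 CPM in fl/fl-Sham, 2.49 and 5.36 in CKO-Sham, 3.55 and 17.0 in fl/fl-MI, and 4.22 and 0.371 in CKO-MI. Both were highest in fl/fl-MI 2 and lowest of the MI libraries in CKO-MI 2, and Cxcl2 did not pass (adjusted p = 0.221). Ppbp, carried by platelets, had 0.526 to 1.38 CPM in sham, 10.1 and 0.398 in fl/fl-MI, and 5.80 and 0.824 in CKO-MI (log2 fold change 2.08, standard error 0.98, adjusted p = 0.131). The 7 platelet and megakaryocyte markers summed to 4.28 to 5.88 CPM in sham and to 15.8, 4.90, 11.0 and 5.23 CPM in the MI libraries in the same order, high in the 2 libraries where Ppbp was high, and their part in the Ppbp values was not tested. Pf4, the other platelet chemokine, which macrophages also make, did not follow Ppbp, with 7.68 to 11.7 CPM in sham and 11.5, 16.4, 7.25 and 9.79 CPM in MI.

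Of the interferon-induced ligands of Cxcr3, Cxcl10 rose over both genotypes. It had 0.836, 1.09, 1.25 and 0.855 CPM in the sham libraries, 4.83 and 5.03 CPM after MI in fl/fl, and 0.957 and 1.14 CPM after MI in CKO. The 2 fl/fl-MI libraries agreed closely and stood above the other 6, and the CKO-MI libraries lay within the sham range. Over both genotypes its log2 fold change was 1.17 (standard error 0.24, edgeR adjusted p = 0.00896), made up of 2.35 (standard error 0.35, adjusted p = 0.00824) in fl/fl and -0.01 in CKO. Cxcl9 had 6.53, 8.56, 6.95 and 8.22 CPM in sham, 14.6 and 3.92 in fl/fl-MI, and 2.15 and 2.48 in CKO-MI. Its fl/fl-MI libraries lay on either side of the sham range and its CKO-MI libraries below it, and it did not pass over both genotypes (log2 fold change -0.71, standard error 0.38, adjusted p = 0.181). Cxcl11, the third ligand of the receptor, had at most 12 counts in a library. Cxcr3 had 0.272 to 0.760 CPM in sham and 2.75, 0.398, 1.03 and 1.35 CPM in the MI libraries (log2 fold change 1.69, standard error 0.64, adjusted p = 0.0729).

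**Figure D2:**
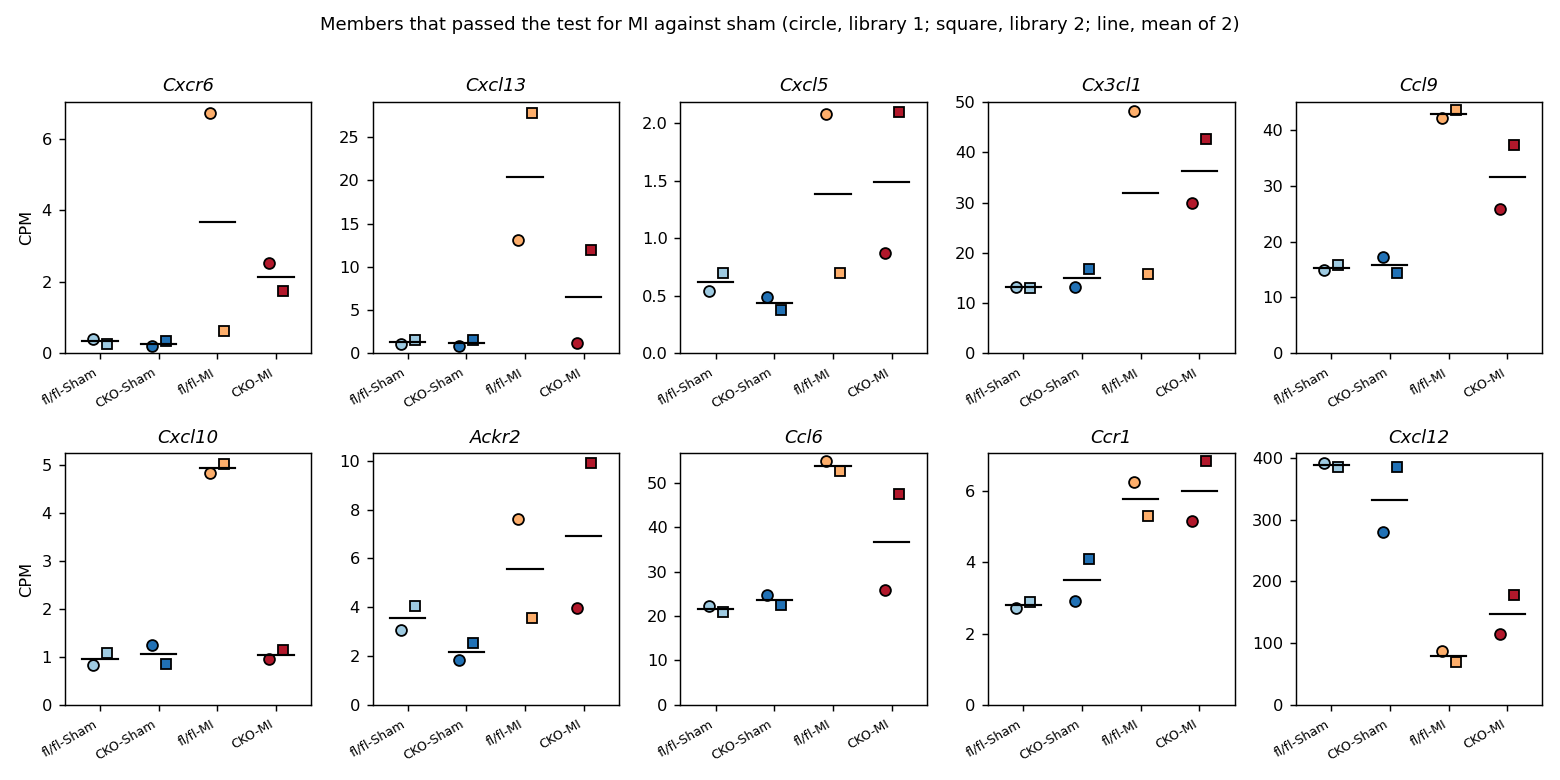
CPM on linear axes from 0 in the 4 groups for the 10 members that passed the test for MI against sham, with a circle for library 1, a square for library 2 and a line at the mean of the 2. Cxcl10 is near 5 CPM in fl/fl-MI and near 1 CPM in the other 3 groups, and Cxcl12 falls from 279 to 391 CPM in sham to 69.0 to 178 CPM in MI.

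Cxcl12, which retains leukocytes and progenitors through Cxcr4, was the member that fell. It had 391 and 385 CPM in fl/fl-Sham, 279 and 386 in CKO-Sham, 87.9 and 69.0 in fl/fl-MI, and 115 and 178 in CKO-MI. All MI libraries lay below all sham libraries, and the log2 fold change was -1.74 (standard error 0.19, edgeR adjusted p = 0.00111), with -2.31 (adjusted p = 0.00517) in fl/fl and -1.18 (adjusted p = 0.0217) in CKO. In CKO the call was lost on total counts without TMM (-0.60, edgeR adjusted p = 0.168) and in limma on log2(FPKM + 1) (-0.60, adjusted p = 0.158). Leaving out 1 library at a time, the edgeR adjusted p reached 0.116 in CKO and 0.053 in fl/fl. Endothelial markers were lower after MI as well, and 6 of the 7 listed genes fell. They summed to 1560 to 1860 CPM in sham, 579 and 998 CPM after MI in fl/fl and 743 and 754 CPM after MI in CKO. Among the MI libraries they did not follow Cxcl12: fl/fl-MI 2 had the highest endothelial sum and the lowest Cxcl12. Of the 7 mural cell markers 3 fell, from sums of 1370 to 1490 CPM in sham to 524 to 747 CPM after MI. Their lowest sum was that of fl/fl-MI 2, as for Cxcl12. The part of either marker list in the fall of Cxcl12 was not tested. Cxcr4, the signalling receptor, had 7.58 to 10.5 CPM in sham, 11.8 and 4.0 in fl/fl-MI, and 6.37 and 4.36 in CKO-MI (log2 fold change -0.47, standard error 0.33, adjusted p = 0.294). Ackr3, the receptor that removes Cxcl12, had 49.7 to 56.5 CPM in sham and 56.5, 93.5, 89.0 and 57.7 CPM in MI with no overlap, the closest 2 libraries being nearly equal (log2 fold change 0.52, standard error 0.20, adjusted p = 0.0757).

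The deposited transcript table splits Cxcl12 into 4 transcripts, whose FPKM values are the authors' estimates and were not tested. ENSMUST00000073043, with 119 codons the longest of the 3 protein-coding transcripts, held 81.3% to 83.4% of the summed Cxcl12 FPKM in the sham libraries, and 53.3%, 40.7%, 65.5% and 51.7% in fl/fl-MI 1, fl/fl-MI 2, CKO-MI 1 and CKO-MI 2. Its FPKM was 36.0 to 50.6 in sham and 14.0, 7.71, 17.8 and 27.2 in MI. The transcripts of 89 and 93 codons, ENSMUST00000112866 and ENSMUST00000112871, did not show that fall: the former was at 0.134 to 1.43 FPKM in sham and 1.72 to 3.23 FPKM in MI, and the latter at 0.238 to 1.15 FPKM in sham and 1.09, 5.30, 0.486 and 9.06 FPKM in MI. The retained-intron transcript ENSMUST00000134244 had 6.94 to 9.99 FPKM in sham and 3.66 to 13.1 FPKM in MI, ranges that overlap. FPKM is not TMM-scaled, and the median tested gene was higher after MI by 0.41 on the log2(FPKM + 1) scale, so that the transcript values sit on a scale where most genes are higher in MI.

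**Figure D3:**
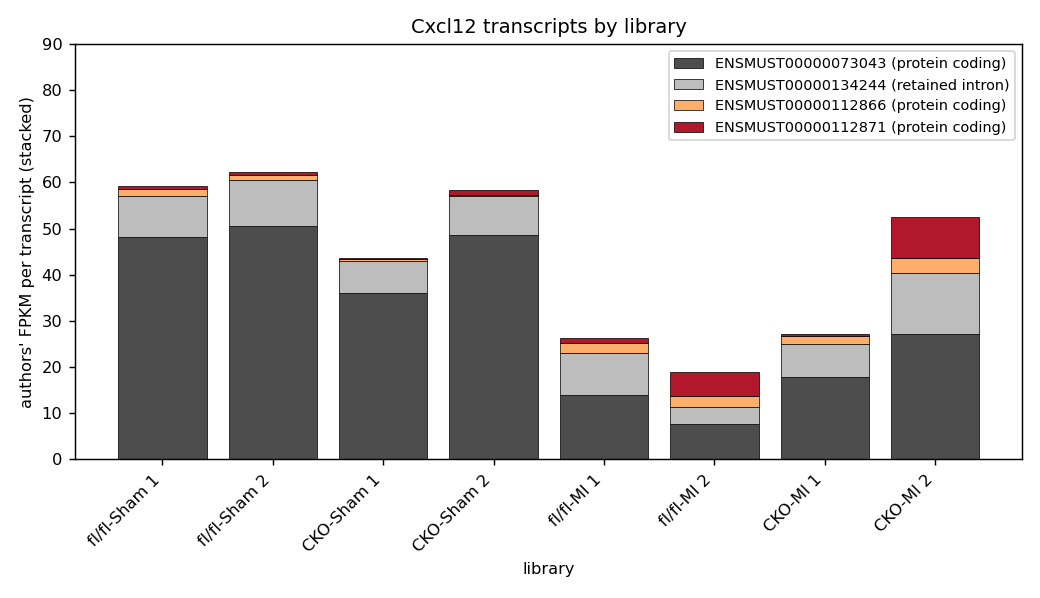
Stacked bars of the authors' FPKM for the 4 Cxcl12 transcripts in each library, on a linear axis from 0. The dark segment, ENSMUST00000073043, falls from 36.0 to 50.6 FPKM in sham to 7.71 to 27.2 FPKM in MI, while the 2 shorter coding transcripts at the top of the bars reach 9.06 FPKM in CKO-MI 2.

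Of the other homeostatic or membrane-bound ligands, 1 of 3 tested rose. Cx3cl1 (fractalkine), the ligand of Cx3cr1, had 13.3 and 13.0 CPM in fl/fl-Sham, 13.1 and 16.7 in CKO-Sham, 48.3 and 15.7 in fl/fl-MI, and 30.0 and 42.7 in CKO-MI. The library labelled fl/fl-MI 2 was within the sham range and the other 3 MI libraries were above it, and the gene rose by 1.28 on the log2 scale (standard error 0.34, edgeR adjusted p = 0.0217). Cx3cr1, on patrolling monocytes and resident macrophages, had 4.62 and 5.35 CPM in fl/fl-Sham, 2.47 and 3.98 in CKO-Sham, 12.9 and 2.0 in fl/fl-MI, and 3.99 and 19.0 in CKO-MI, and did not pass (log2 fold change 1.21, standard error 0.66, adjusted p = 0.183). Cxcl16, the ligand of Cxcr6, had 12.9 to 17.3 CPM in sham, 32.4 and 21.2 in fl/fl-MI, and 15.5 and 26.4 in CKO-MI (log2 fold change 0.62, standard error 0.22, adjusted p = 0.059). Its receptor Cxcr6, found on resident memory and natural killer T cells, had 0.191 to 0.409 CPM in sham, 6.71 and 0.628 in fl/fl-MI, and 2.53 and 1.75 in CKO-MI. The sham mean of Cxcr6 was 0.123 FPKM, so its fold change starts near the floor. Every MI library was above every sham library, and the log2 fold change of 3.22 (standard error 0.73, adjusted p = 0.0131) was, with that of Cxcl13, among the largest of the tested members. Without fl/fl-MI 1 it was 1.93 and that of Cxcl13 3.39. The 7 T cell markers summed to 10.3 to 17.2 CPM in sham and 17.9, 5.58, 12.9 and 15.7 CPM in MI, and none of the 3 tested passed. Cxcl14, a ligand made by stromal cells, ranged from 8.03 to 12.7 CPM in sham and had 21.1, 5.09, 21.2 and 80.9 CPM in MI (log2 fold change 1.25, standard error 0.54, adjusted p = 0.102).

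Of the atypical receptors, Ackr2, which degrades inflammatory Ccl ligands, rose. It had 3.07 and 4.07 CPM in fl/fl-Sham, 1.82 and 2.53 in CKO-Sham, 7.61 and 3.55 in fl/fl-MI, and 3.97 and 9.89 in CKO-MI (log2 fold change 1.16, standard error 0.38, edgeR adjusted p = 0.0453), with 1 library of each MI group inside the sham range. Ackr4, the scavenger of Ccl19 and Ccl21, ranged from 2.96 to 5.96 CPM in sham and from 3.75 to 8.52 CPM in MI and did not pass. Ccrl2, which binds chemerin and does not signal, had 8.87 to 12.3 CPM in sham, 7.91 and 57.3 in fl/fl-MI, and 6.16 and 4.69 in CKO-MI. A single library, fl/fl-MI 2, was above the sham range and the other 3 MI libraries were below it.

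Many of these values differed between the 2 libraries of fl/fl-MI, and with 2 in the group neither can be called typical. Of the 34 tested members, fl/fl-MI 2 was more than 2-fold above fl/fl-MI 1 for 7 and more than 2-fold below it for 17. Among the 4 MI libraries, fl/fl-MI 1 was the highest for 15 members and the lowest for 3. The library fl/fl-MI 2 was the highest for 13 and the lowest for 16. Shares of all tested genes were not taken for these counts, so they are not read as a result about the members. Cxcl10 was nearly equal in the 2 fl/fl-MI libraries, at 4.83 and 5.03 CPM. The receptors Ccr2, Cx3cr1, Cxcr3 and Cxcr6 were each lowest in fl/fl-MI 2, and Cxcl1, Cxcl2, Cxcl13 and Ccrl2 highest. Without it, 17 members rose (50.0%, against 26.9% of all tested genes) and 4 fell (11.8%, against 23.8%). The 9 members that rose in all libraries were among the 17, and those that joined them included Ccl8, Ccr2, Cx3cr1, Cxcl14, Cxcl16, Cxcr3 and Ppbp, and Cxcl12 was joined by Ccl11, Ccl24 and Ccrl2. Ccr2 was then 1.11 higher on the log2 scale (standard error 0.29, edgeR adjusted p = 0.0161). With fl/fl-MI 1 left out in its place, 10 members rose (29.4%, against 25.0% of all tested genes) and 4 fell (11.8%, against 23.6%), and Ccrl2 was then among those that rose (log2 fold change 0.72, adjusted p = 0.00631) while Cxcl9 and Cxcr4 were among those that fell. Leaving out a library of another group gave 4 to 10 that rose, where 12.1% to 16.1% of all tested genes rose, and Cxcl12 as the 1 that fell. Ccl9, Ccl6, Ccr1, Cxcl10 and Cxcl12 passed in edgeR whichever of the 8 libraries was left out. Cxcl13, Cxcr6, Cx3cl1, Cxcl5 and Ackr2 missed the threshold without at least 1 of the libraries, with edgeR adjusted p-values up to 0.0621, 0.065, 0.0855, 0.127 and 0.148.

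**Figure D4:**
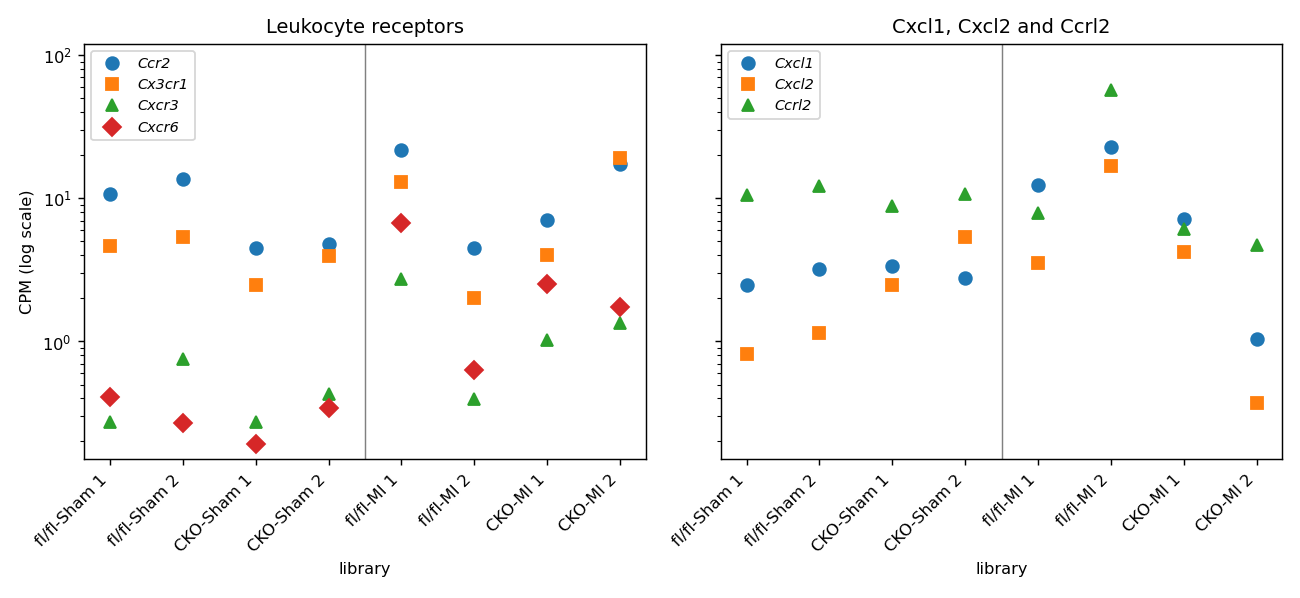
CPM on a log scale in each of the 8 libraries for 4 leukocyte receptors (left) and for Cxcl1, Cxcl2 and Ccrl2 (right), 1 point per gene and library, with sham libraries left of the grey line. The 4 receptors are at their lowest MI value in fl/fl-MI 2, where Ccrl2 reaches 57.3 CPM, Cxcl1 22.9 CPM and Cxcl2 17.0 CPM, their highest values.

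Within each genotype, the comparison of MI with sham rested on 2 libraries against 2. In fl/fl, 5 members rose (Cxcl13, Cxcl10, Ccl9, Ccl6 and Ccr1; 14.7%, against 10.1% of all tested genes) and Cxcl12 fell (2.94%, against 8.45%). In CKO, Ccl9 rose (2.94%, against 12.8%), and Cxcl12 and Ccl24 fell (5.88%, against 11.9%). Ccl24 had a log2 fold change of -2.45 in CKO (standard error 0.70, edgeR adjusted p = 0.0426), and its CKO-MI values of 0.331 and 0.258 CPM were low. It passed in DESeq2 (-2.46, adjusted p = 0.00593) and not in limma on log2(FPKM + 1) (-0.64, adjusted p = 0.0982). On total counts without TMM, 10 members rose in CKO (29.4%, against 35.6% of all tested genes) and 1 fell (2.94%, against 3.71%), and 12 rose in fl/fl (35.3%, against 38.5%). The median log2 fold change of the 34 members was 0.72 in fl/fl and 0.49 in CKO, against 0.052 and 0.008 for all tested genes. Above 0 were 30 and 21 of the 34.

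The comparison of CKO-MI with fl/fl-MI asked which members differ by the Piezo1 label after MI. No member (0 of 34) and no gene of the table (0.00%) passed an adjusted p under 0.05 in edgeR, while DESeq2 passed 3 members (8.82%, against 1.48% of all tested genes), Cxcl10, Cxcl9 and Ccrl2, all lower in CKO-MI. At an unadjusted p under 0.05 there were 8 members (23.5%, against 8.31% of all tested genes), 6 lower and 2 higher. The estimate was below 0 for 27 of the 34 members, with a median log2 difference of -0.43 against -0.01 for all genes. Cxcl10 had the smallest p, with a log2 difference of -2.23 (standard error 0.34, unadjusted p = 0.000326, adjusted p = 0.454 in edgeR), each CKO-MI library being below each fl/fl-MI library. Cxcl9 differed by -2.0 (standard error 0.56, unadjusted p = 0.00897 in edgeR), again with no overlap. Ccrl2 (-2.59, standard error 0.78), Cxcl1 (-2.12, standard error 0.78), Ccl24 (-1.85, standard error 0.69) and Pf4 (-0.71, standard error 0.29) were also lower at an unadjusted p, and each had its highest value of the 4 in fl/fl-MI 2. The 2 higher members were Cxcl12 (0.90, standard error 0.26, unadjusted p = 0.0108), whose CKO-MI libraries were both above both fl/fl-MI libraries, and Cxcl14 (1.96, standard error 0.77), which had 80.9 CPM in CKO-MI 2 and 21.2 CPM in CKO-MI 1.

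Without fl/fl-MI 2, so that fl/fl-MI is 1 library assumed to vary like the others, 6 members had an unadjusted p under 0.05 (17.6%, against 11.8% of all tested genes): Cxcl9, Cxcl10, Cxcl12, Ccl8, Cxcr4 and Cxcr6. Cxcl9, at -2.66 (standard error 0.26, edgeR adjusted p = 0.0181), was the 1 member (2.94%) to pass, where 0.192% of all genes passed, and without fl/fl-MI 1 it was -0.74 (standard error 0.28, adjusted p = 0.128). Cxcl10 stayed at -2.20 (standard error 0.40, adjusted p = 0.0931) and Cxcl12 at 0.74 (standard error 0.30, adjusted p = 0.397). Ccrl2 moved to -0.55, Ccl24 to -0.50 and Pf4 to -0.44. Without fl/fl-MI 1 in its place, 5 members passed (14.7%, against 11.9% of all tested genes) and 18 had an unadjusted p under 0.05 (52.9%, against 29.2%), among them Ccrl2 at -3.38 (standard error 0.23, adjusted p = 0.000549), Cxcl10 at -2.24 (standard error 0.40, adjusted p = 0.0157) and Cxcl14 at 3.34 (standard error 0.76, adjusted p = 0.0344). The direction of Cxcr6 and Cxcr4 turned with the library left out, from -1.65 and -1.14 without fl/fl-MI 2 to 1.78 and 0.44 without fl/fl-MI 1, and Ccl8 went from -2.16 to -0.01. The macrophage markers differed in the same libraries, with the sums given above, and 4 of the 12 had an unadjusted p under 0.05 between CKO-MI and fl/fl-MI, and so had 4 of 5 atrial (median log2 difference -6.98), 3 of 5 mesothelial and 3 of 7 mural cell markers. Their part in the members' values was not tested.

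**Figure D5:**
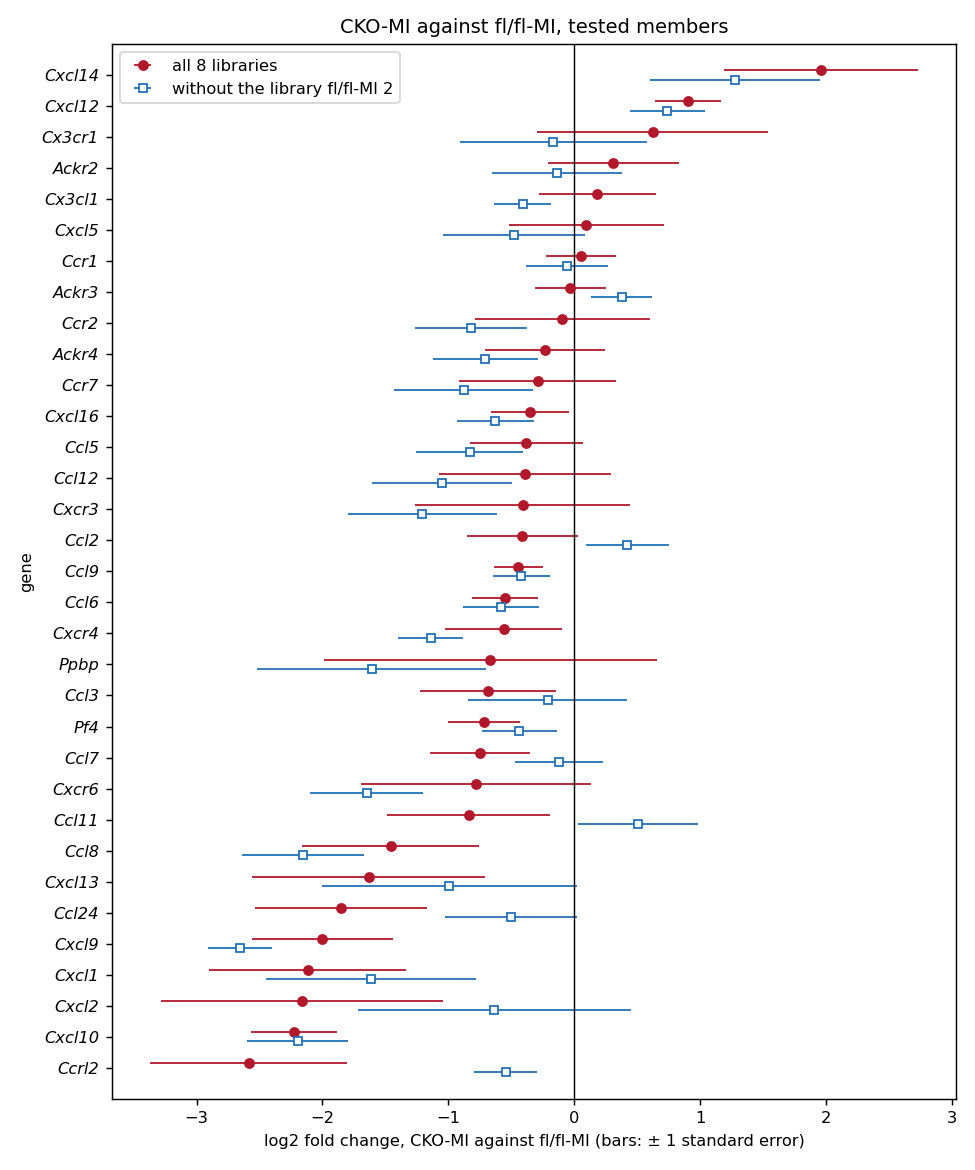
Log2 difference between CKO-MI and fl/fl-MI for 33 of the 34 tested members, with bars of 1 standard error, from all 8 libraries (filled circles) and without the library labelled fl/fl-MI 2 (open squares). Cxcl10, Cxcl9 and Cxcl12 stay on the same side of 0 without that library (-2.20, -2.66 and 0.74), while Ccrl2 moves from -2.59 to -0.55. Leaving out fl/fl-MI 1 in its place, which is not drawn, puts Cxcl9 at -0.74 and Ccrl2 at -3.38.

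Between the sham groups, 0 members passed (0.00713% of all tested genes did), and 2 had an unadjusted p under 0.05 (5.88%, against 3.89% of all genes). These were Ccl8 and Ccl12, both listed with the ligands that attract monocytes and macrophages. Ccl8 had 1.71 and 2.33 CPM in fl/fl-Sham and 0.627 and 0.345 CPM in CKO-Sham, and Ccl12 1.35 and 2.67 CPM against 0.667 and 0.444 CPM, without overlap. The log2 differences were -2.04 (standard error 0.74, unadjusted p = 0.0279 in edgeR) and -1.85 (standard error 0.71, unadjusted p = 0.0355), and the adjusted p was 1 for both.

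The interaction, the MI effect in CKO minus that in fl/fl, shares its libraries with all comparisons above. It passed for 0 members (0.00% of all tested genes) and had an unadjusted p under 0.05 for 5 (14.7%, against 8.49%): Cxcl10, Cxcl12, Ccl24, Cxcl9 and Cxcl2. Without fl/fl-MI 2 there were 4 (11.8%, against 14.9%). For Cxcl10 the difference was -2.36 (standard error 0.48, unadjusted p = 0.00166 in edgeR), and it was -2.33 without fl/fl-MI 2. For Cxcl12 it was 1.13 (standard error 0.37, unadjusted p = 0.0186).

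Genes around the system were followed through lists. Of 33 tested genes of receptor signalling, 7 rose after MI (21.2%, against 22.0% of all tested genes) and 3 fell (9.09%, against 18.3%), with a median log2 fold change of 0.39. Tiam1, an activator of the GTPase Rac, rose by 2.16 (standard error 0.31, edgeR adjusted p = 0.00267), from 2.85 to 5.17 CPM in sham to 10.9 to 22.3 CPM in MI. Pik3r6, a regulatory subunit of the leukocyte-enriched PI3K gamma, fell by 1.95 (standard error 0.15, adjusted p = 0.000539), from 19.3 to 21.5 CPM in sham to 3.42 to 6.94 CPM in MI. Of 16 tested genes that process or present chemokines, 9 rose (56.2%) and 1 fell (6.25%), with a median of 0.67. They included the matrix metalloproteinases Mmp2, Mmp3, Mmp9 and Mmp14, the heparan sulfate carriers Sdc1 and Sdc4 and the sulfate-chain enzymes Ext1 and Ndst1, and Tnfaip6, a chemokine-binding protein, while Hspg2 (perlecan) fell by 0.44 (adjusted p = 0.0365). Fibroblast markers moved with these genes, 8 of 8 having risen, from sums of 1490 to 1660 CPM in sham to 6670, 2460, 3410 and 5640 CPM in MI, and their part was not tested. Of the relatives outside the symbol rule, 6 were tested. Cd74, the receptor of Mif, rose by 1.38 (standard error 0.35, adjusted p = 0.0207), with 52.0 to 91.2 CPM in sham and 475, 155, 107 and 109 CPM in MI. Ccl27a fell by 0.78 (standard error 0.24, adjusted p = 0.0397). Ccl21a, a ligand of Ccr7 with near-identical copies whose reads cannot be assigned with certainty, had 20.2 to 42.1 CPM in sham and 86.9, 5.20, 37.8 and 93.2 CPM in MI (adjusted p = 0.403).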

How the data were processed

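The 8 libraries were made from poly(A) RNA of mouse myocardium by the authors, with reads trimmed by cutadapt 1.9 and checked with FastQC per the submitters' processing notes. The aligner and counter are not given in the sources used here. The authors deposited a raw count per gene and transcript and an FPKM value, normalized to length and library size. Depth limits low genes: counts were 73821747 to 88117573 per library, at about 4 per read pair. Coordinates are on GRCm38.

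Samples were grouped by their labels. Genes whose FPKM averaged at least 0.5 were tested on the deposited counts with edgeR 4.0.16 in R 4.3.3 (glmQLFit, TMM, all 8 libraries, a mean per group, no replicate block), adjusted by Benjamini-Hochberg over 14028 genes. Standard errors were derived from the F statistic of each log2 fold change, and library values are CPM on TMM-scaled sizes. Alternatives used DESeq2 1.42.0, limma 3.58.1 on log2(FPKM + 1) and log2(FPKM + 0.1), other filters and scalings, and each library left out. Tests were tried on simulated data. Tables and figures were made in Python 3.11.15 with pandas 2.3.3 and matplotlib 3.10.9. The members, role lists, marker lists and motifs were chosen with earlier results of these data known, so no set test was run. Members that passed the filter are named with values, ligand and receptor partners are named whatever their values, and in genotype comparisons each member at an unadjusted p under 0.05. Same-numbered libraries did not deviate together (correlations of deviations from group means -0.21 to 0.055). With 2 libraries in each group this cannot exclude that the replicate numbers pair them. Promoter sequences are from RefSeq on GRCm38.p6. Values of 1 tested member are not reported here, and it is counted in the totals.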

Additional observations from a re-analysis of the deposited data

Results flagged for a closer look

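The difference between the MI effect in CKO and that in fl/fl had an unadjusted p under 0.05 in edgeR for 5 members, and none of them passed after adjustment over all genes (adjusted p 0.56 or 0.574). It was -2.36 on the log2 scale for Cxcl10 (standard error 0.48), -2.01 for Cxcl9 (standard error 0.77), -2.75 for Ccl24 (standard error 0.95), -4.16 for Cxcl2 (standard error 1.60) and 1.13 for Cxcl12 (standard error 0.37). Without the library labelled fl/fl-MI 2 the values were -2.33, -2.66, -1.40, -2.63 and 0.96, with unadjusted p-values of 0.00323, 7.83e-05, 0.0722, 0.105 and 0.0362 in edgeR. Cxcl10, Cxcl9 and Cxcl12 kept an unadjusted p under 0.05 without that library, and Ccl24 and Cxcl2 did not. Without fl/fl-MI 1 in its place the values were -2.37, -0.75, -3.43, -4.86 and 1.33 in that order of genes, with unadjusted p-values of 0.00283, 0.0751, 0.000846, 0.0105 and 0.00873. Cxcl9 then missed an unadjusted p of 0.05, and Ccl24 passed after adjustment (edgeR adjusted p = 0.0288), as did Ccrl2 and Ccr2.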

How the results depend on the processing

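All 10 members that passed for MI against sham and all 8 with an unadjusted p under 0.05 between CKO-MI and fl/fl-MI kept their direction in 341 of 341 alternatives, and 57 of these missed the threshold. Counts moved more. The limit was also raised to a mean FPKM of 5. Then 4 of 10 members rose after MI over both genotypes (40.0%, against 27.4% of the genes tested). In fl/fl 3 rose (against 14.3%), and in CKO 1 fell (against 19.8%). At an unadjusted p there were 3 between CKO-MI and fl/fl-MI (against 8.87%). Between the sham groups there were 0 (against 5.00%), and for the interaction 1 (against 10.9%). These counts moved since fewer genes were tested. Without a limit 5 of 56 rose in CKO (8.93%, against 5.68% of all genes). At an unadjusted p there were 13 (23.2%, against 5.81%), 4 (7.14%, against 2.93%) and 9 (16.1%, against 6.01%) in those 3 comparisons. On total counts alone 18 rose over both genotypes (52.9%, against 52.2% of all tested genes) and 12 in fl/fl (35.3%, against 38.5%). In CKO 10 rose (29.4%, against 35.6%) and 1 fell (2.94%, against 3.71%). DESeq2 gave 16 higher (47.1%, against 24.5%) and 2 lower (5.88%, against 21.7%) over both genotypes. In fl/fl it gave 9 higher (26.5%, against 15.7%), and in CKO 8 higher (23.5%, against 17.2%) and 4 lower (11.8%, against 16.5%). It passed 3 between CKO-MI and fl/fl-MI (8.82%, against 1.48%) and 1 for the interaction (2.94%, against 0.934%). At an unadjusted p it gave 4 between the sham groups (11.8%, against 4.58%) and 9 for the interaction (26.5%, against 10.2%). limma on log2(FPKM + 1) and log2(FPKM + 0.1) gave 14 and 15 higher over both genotypes (41.2% and 44.1%, against 50.1% and 50.8%). In fl/fl 10 and 10 were higher (29.4% each, against 34.2% and 35.5%). In CKO 6 and 7 were higher (17.6% and 20.6%, against 33.0% and 34.6%) and 0 and 0 lower (against 3.81% and 3.80%). The former gave 0 at an unadjusted p between the sham groups (against 3.05%). With only the libraries compared in the fit, 2 rose in fl/fl (5.88%, against 0.485% of all tested genes). In CKO 8 rose (23.5%, against 18.0%) and 6 fell (17.6%, against 16.4%). Between the sham groups 1 passed (2.94%, against 1.18%). At an unadjusted p under 0.05 there were 4 between the MI groups (11.8%, against 3.10%) and 6 between the sham groups (17.6%, against 15.5%). An unadjusted p with a 2-fold change gave 2 lower over both genotypes, 9 higher in fl/fl, 7 higher and 4 lower in CKO, 6 between the MI groups, 2 between the sham groups and 5 for the interaction. The counts under this rule are given without a share of all genes, so they are not read as a result about the members. Except where stated, the cause was not tested.

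With the replicate block, 7 members rose (20.6%, against 19.6% of all tested genes) and 1 fell (2.94%, against 16.7%) over both genotypes. In CKO 1 fell (2.94%, against 9.20%). At an unadjusted p under 0.05 there were 1 between the sham groups (2.94%, against 3.25%) and 3 for the interaction (8.82%, against 6.92%). Whether the numbers pair the libraries is not known. A crossed pairing, chosen after seeing the data, gave 10 higher and 2 lower over both genotypes and 2 higher in CKO.

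Leaving out 1 library at a time, the members that rose over both genotypes ranged from 4 (without fl/fl-Sham 1, fl/fl-Sham 2 or CKO-Sham 1) to 17 (without fl/fl-MI 2), with 6 without CKO-Sham 2, and those that fell from 1 to 4 (without either fl/fl-MI library). In fl/fl none (0, without either fl/fl-Sham library) to 12 (without fl/fl-MI 2) rose, and 0 to 4 (without fl/fl-MI 1) fell. In CKO 0 to 10 (without either fl/fl-MI library) rose and 0 to 6 fell. Between CKO-MI and fl/fl-MI 0 to 5 (without fl/fl-MI 1) passed and 5 (without CKO-MI 1) to 18 (without fl/fl-MI 1) had an unadjusted p under 0.05. Between the sham groups these were 0 to 3, and for the interaction 0 to 3 passed, and at an unadjusted p there were 1, when fl/fl-Sham 1 was left out, to 20, when fl/fl-MI 1 was. A lone library is assumed there to vary like the other groups. The shares of all tested genes moved with the library left out as well, so these ranges are not read as a result about the members.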

Other observations

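Xcr1 and Ccl22, both below the limit on low values, had their highest value in fl/fl-MI 1. So had Ccl1, Ccl19, Ccr4 and Cxcl17, also below the limit. Xcr1, the receptor of cross-presenting dendritic cells, had 0.205 to 0.317 CPM in the sham libraries, 2.74 CPM in that library, and then 0.193, 0.331 and 0.742 CPM in the MI libraries that follow it (fl/fl-MI 2, CKO-MI 1 and CKO-MI 2). Ccl22, a ligand of Ccr4 made by dendritic cells and macrophages, had 0 to 0.450 CPM in sham, 1.84 CPM in that same library, and 0.459, 1.11 and 0.330 CPM in the other MI libraries in that order. Both had been left untested by the limit and were named after their values were seen. The 5 dendritic cell markers summed to 51.2 to 58.6 CPM in sham and to 33.1, 14.3, 26.5 and 28.2 CPM in the MI libraries, fl/fl-MI 1 first. Of the 4 tested, 1 rose and 2 fell.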
